A study of Rattus norvegicus with 4 samples.

Results

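The miR-200 family (miR-200a, miR-200b, miR-200c, miR-141 and miR-429), miR-203a, miR-203b, miR-205 and miR-375 were followed in exosomes (secreted vesicles) of rat fat. They were taken by the names of their precursor hairpins (rno-mir-200a, rno-mir-200b, rno-mir-200c, rno-mir-141, rno-mir-429, rno-mir-203a, rno-mir-203b, rno-mir-205 and rno-mir-375), 9 of the 302 named hairpins that carried a count in at least 1 library. The rule used names and no measured value, but it was set with earlier results of these data known. The study set exosomes of adipose tissue (Exo-AT) against exosomes of adipose stem cells (Exo-ADSCs), with 4 small RNA libraries, 2 per group, all from untreated material; the labels name no genotype or agent beyond the culture medium with its antibiotics. Exo-AT came from minced fat of SD rats aged 4 weeks, kept as explants in 75 mL of medium in a spinner flask at 100 rpm for 3 days, so fat cells, vessels, blood cells and any attached tissue could all contribute vesicles. Exo-ADSCs came from passage 3 stem cells kept for 3 days in serum-free medium. The labels give neither the fat depot nor the number of animals pooled, and they do not say whether a second replicate is a second culture or animal. The tests had tag counts for 1 Exo-ADSCs library. The p-values therefore cover counting error and the spread between the 2 Exo-AT libraries, possibly technical, and no more.

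Tag counts, the number of reads of each distinct sequence, were used for 3 libraries: 97204 counts fell on named miRNAs in Exo-ADSCs replicate 2, and the Exo-AT libraries had 9134 (replicate 1) and 136024 (replicate 2). The other Exo-ADSCs library enters only through the authors' deposited table, so Exo-ADSCs has no SD below. Named miRNAs held 13.6% of all hairpin counts in Exo-ADSCs replicate 2, against 60.1% and 75.1% in the Exo-AT libraries, and the rest lay on hairpins the authors predicted. Both Exo-AT tag files carry the same sample name inside. Levels are given in CPM, counts scaled to the library's named-miRNA total. Where nothing was counted, as many as 3 counts remain possible, and these equal 30.9, 328 and 22.1 CPM in the order above. Intervals and these limits cover counting error only, since the reads carry no molecular identifiers. No listed tag had fewer than 2 reads in any of the 3 libraries, so sequences read once may be missing. The limits do not allow for this, and folds against them are no strict bounds.

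A miRNA is cut from a hairpin with a 5p and a 3p arm, and the seed, bases 2 to 8 of the mature strand, is the main determinant of which messenger RNAs it pairs with. The miR-200 family is known for holding epithelial cells in the epithelial state by repressing ZEB1 and ZEB2, the transcription factors that silence E-cadherin. miR-205 acts on the same factors, miR-203 is best known from skin, where it limits proliferation of keratinocytes by repressing p63, and miR-375 is abundant in pancreatic islets and in several epithelia, where it regulates insulin secretion among other processes. Stem cells of fat are mesenchymal, a state in which the miR-200 family is typically low.

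RefSeq (GRCr8) placed the genes at 5 sites if the antisense pair of miR-203 hairpins is counted as 1. miR-200a, miR-200b and miR-429 lie on chromosome 5 and miR-141 with miR-200c on chromosome 4, all on the minus strand. miR-203a lies on the plus strand of chromosome 6 and miR-203b (symbol Mir3545) on its minus strand. The 97 nt hairpin of miR-203a is antisense to part of the 115 nt hairpin of miR-203b over its whole 97 nt, and miR-203a-5p and miR-203b-3p overlap on opposite strands by 20 nt. miR-375 lies on chromosome 9 and miR-205 on chromosome 13, both on the minus strand. All 9 hairpins had the same sequence in RefSeq and in the deposited files, and 13 of the 18 mature arms had an entry in RefSeq.

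The mature strands of 6 of the 10 arms with a count are shown because the seeds separate miRNAs with similar names; capitals mark the seed. miR-200a-3p, miR-200b-3p, miR-429-3p and miR-203a-5p are named only.
miR-203a-3p: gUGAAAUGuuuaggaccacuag
miR-203b-3p: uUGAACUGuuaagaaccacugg
miR-205-5p: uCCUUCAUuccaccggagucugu
miR-375-3p: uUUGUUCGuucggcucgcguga
miR-141-3p: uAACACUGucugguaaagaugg
miR-200c-3p: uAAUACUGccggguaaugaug
No seed was shared among these 6 sequences, which include 2 of the 5 miR-200 family hairpins. miR-203a-3p and miR-203b-3p, although they share a name, come from opposite strands of the locus and have different seeds. Their reads differ in sequence, and all 61 tags on the 9 hairpins were listed under a single hairpin each. The deposited alignments mark 32 of the 61 tags with status R, a letter whose meaning is not given. Every miR-203a-3p and miR-203b-3p tag printed below has it, and the printed miR-205-5p, miR-375-3p and miR-141-3p tags have status U. A single listed hairpin is therefore no proof of a single place in the genome.

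The epithelial miRNAs did not move as a block between the sources. miR-203b-3p and miR-205-5p were present in both Exo-AT libraries and had 0 counts in Exo-ADSCs replicate 2, miR-203a-3p was lower in Exo-AT, and no difference passed the test for miR-375-3p, miR-200a-3p, miR-141-3p or miR-200b-3p. Of the 18 arms, 10 had a count in at least 1 library and 8 had none, among them the 5p arms of all 5 miR-200 family hairpins. In all, 7 of the 10 arms passed the filter on low counts and were tested. Among those 7, 2 were called higher and 1 lower in Exo-AT (edgeR's quasi-likelihood test, two-sided, Benjamini-Hochberg over 183 miRNAs). Of all 183 tested miRNAs 19.1% were called higher and 19.1% lower, and the median log2 fold change over them was 0.37. A filter on low counts keeps a miRNA that is high in only 1 source, so these counts describe the tested arms and not the whole set of 18. In exosome RNA, fewer vesicles from a cell type and less of the miRNA per vesicle cannot be told apart.

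**Figure D1:**
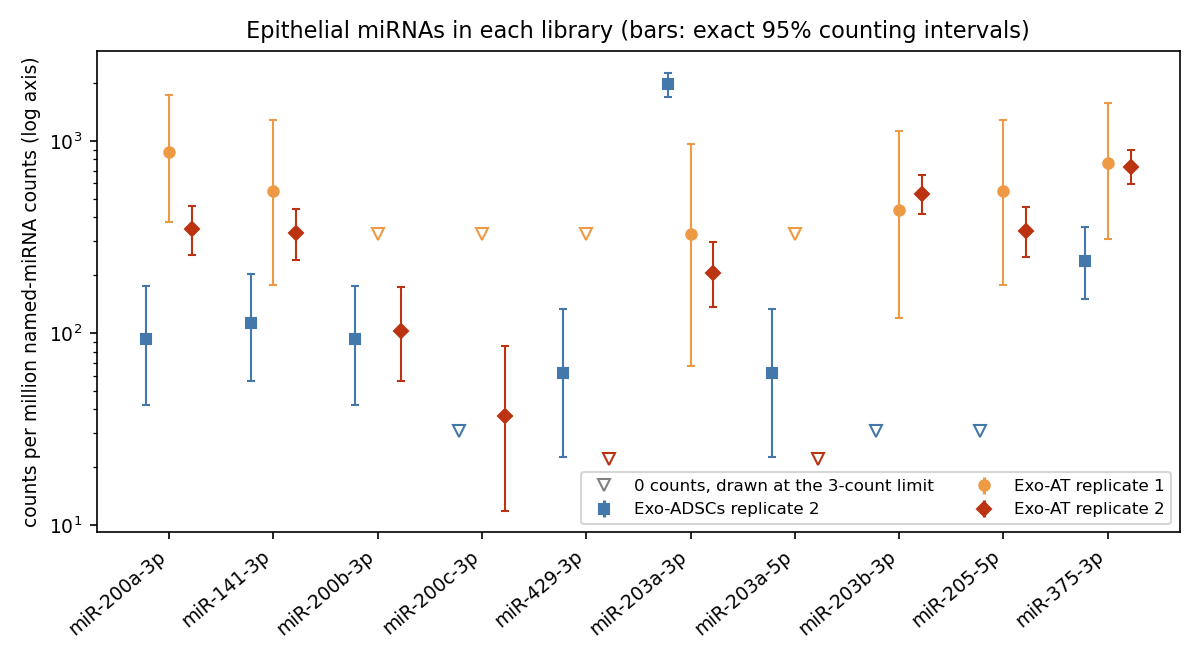
Levels of the 10 arms with a count in each of 3 libraries, in CPM on a log axis, with exact 95% counting intervals as bars. Open triangles mark 0 counts, drawn at the level of 3 counts; miR-203b-3p and miR-205-5p have a triangle for Exo-ADSCs replicate 2, and miR-203a-3p is the miRNA whose Exo-ADSCs value, 1965 CPM, lies above both of its Exo-AT values with no overlap of intervals.

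Together the 9 hairpins held 255, 32 and 357 counts in the libraries in that order. As a share of named-miRNA counts that was 0.262% (Wilson 95% interval 0.232 to 0.297), 0.35% (0.248 to 0.494) and 0.262% (0.237 to 0.291). The 3 intervals overlapped, but the make-up behind them did not match: rno-mir-203a alone gave 197 of the 255 counts in Exo-ADSCs replicate 2. Without miR-203a the shares were 0.0597% (0.0462 to 0.0771) for Exo-ADSCs and 0.317% (0.221 to 0.456) and 0.242% (0.217 to 0.269) for Exo-AT. Both Exo-AT intervals then lay above that of Exo-ADSCs. miR-203a was left out after its counts were seen, so this separation is a description and no independent result.

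miR-203b-3p, the product of rno-mir-203b, was not counted in Exo-ADSCs replicate 2 and had 4 and 72 counts in replicates 1 and 2 of Exo-AT. After TMM scaling, which evens out composition between libraries, its level was 316 and 490 CPM in the Exo-AT libraries (403 ± 123, SD, n = 2). Against 3 counts in the Exo-ADSCs library, the limit used here for a 0, this was 10.2-fold higher (edgeR adjusted p = 0.00286), and 16.9-fold with total-count scaling. The call was lost in 3 of 10 alternative settings, with adjusted p = 0.0518 in limma, 0.0669 with the most common tag alone (edgeR) and 0.511 with predicted hairpins included (edgeR). The tags were mature-sized, with 94.4% of the 72 counts in Exo-AT replicate 2 in tags of 20 to 25 nt. Their 5′ ends were less uniform. In that library 40 of 72 counts (55.6%) began at the RefSeq start and the other counts began 1 nt to either side, which moves the seed. The most common form at each start is printed for this reason. The annotated seed is in capitals where the tag begins at the annotated start or downstream of it. The upstream form also holds all bases of that seed, shifted by 1 position and left unmarked.
annotated start, 23 counts: tTGAACTGttaagaaccactgg
1 nt further upstream, 14 counts, last base a mismatch: gttgaactgttaagaaccactggt
1 nt further downstream, 8 counts: TGAACTGttaagaaccactgg

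miR-205-5p, from rno-mir-205, had 0, 5 and 46 counts in the same order of libraries. Its scaled level was 395 and 313 CPM in Exo-AT (354 ± 58.2, SD, n = 2), 6.83-fold the 3-count limit of Exo-ADSCs replicate 2 (edgeR adjusted p = 0.0153). This call was lost in 6 of 10 alternative settings, with adjusted p = 0.0533 in the DESeq2 test and 0.0772 in limma. Every count of miR-205-5p was in tags of 21 to 24 nt, and 38 of the 46 counts in Exo-AT replicate 2 (82.6%, Wilson 69.3 to 90.9) had the annotated start. It was the single miRNA of the set whose main product came from the 5p arm. The leading form, a mature strand short of its last bases, was the same in both Exo-AT libraries.
miR-205-5p, 5 and 21 counts: tCCTTCATtccaccggagtct

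miR-203a-3p went the other way. Its 191 counts in Exo-ADSCs replicate 2 stood against 3 and 28 in the Exo-AT libraries. The scaled levels were 2977 CPM against 237 and 190 CPM (214 ± 33.0, SD, n = 2), and the ratio of Exo-AT to Exo-ADSCs was 0.0652 with an exact 95% counting interval of 0.0431 to 0.0957. edgeR gave a log2 fold change of -3.87 (SE 0.61, adjusted p = 2.08e-08). It was the most abundant of the 10 arms in Exo-ADSCs replicate 2 and, by the point values, below miR-375-3p, miR-200a-3p, miR-141-3p, miR-203b-3p and miR-205-5p in both Exo-AT libraries.

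The reads behind that level were not mature-sized. In Exo-ADSCs replicate 2, 187 of 191 counts (97.9%, Wilson 94.7 to 99.2) were in tags of 15 or 16 nt, and 184 counts (96.3%) ended at base 16 of the mature strand. The leading tags of that library are printed beside the full-length form to show where they stop.
16 nt, 150 counts: gTGAAATGtttaggac
15 nt, 27 counts: TGAAATGtttaggac
22 nt, 2 counts: gTGAAATGtttaggaccactag
The seed is present in all 3, and the bases after position 16 are missing from the first pair. The same stop at base 16 was seen in Exo-AT, for 3 of 3 counts in replicate 1 and 17 of 28 counts (60.7%, Wilson 42.4 to 76.4) in replicate 2. The short share in Exo-AT replicate 2, 67.9% (49.3 to 82.1), was below that of Exo-ADSCs replicate 2, and the intervals did not overlap.

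Counting tags of 20 to 25 nt alone left miR-203a-3p with 4, 0 and 9 counts. As CPM of the named-miRNA counts of that length these were 92.1 (exact 95% interval 25.1 to 236) for Exo-ADSCs, and 0 (with 3 counts at 407) and 78.3 (35.8 to 149) for Exo-AT replicates 1 and 2. No difference in full-length miR-203a-3p was detectable at this depth, and the miRNA fell below the expression filter, so the lower call rests on the tags of 15 and 16 nt. With the most common tag of each miRNA alone, the log2 fold change was -1.80 (SE 0.95, edgeR adjusted p = 0.127). The most common tag is here the one with the highest share of its miRNA's counts, summed over the libraries. For miR-203a-3p this was the 15 nt tag, with 27, 3 and 13 counts, and not the 16 nt tag that led in Exo-ADSCs replicate 2.

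Tags this short were a minor part of the library as a whole. They held 5.23% of named-miRNA counts in Exo-ADSCs replicate 2 and 3.36% and 2.26% in the Exo-AT libraries. Among the other named miRNAs with at least 20 counts, 5 of 87 in Exo-ADSCs replicate 2 had over 90% of their counts in such tags, as had 1 of 42 and 1 of 122 in the Exo-AT libraries. Tags of 20 to 25 nt held 44.7%, 80.8% and 84.5% of named-miRNA counts in the 3 libraries, so length differed between the sources over all miRNAs. The part of this in the miR-203a-3p result was not tested.

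**Figure D2:**
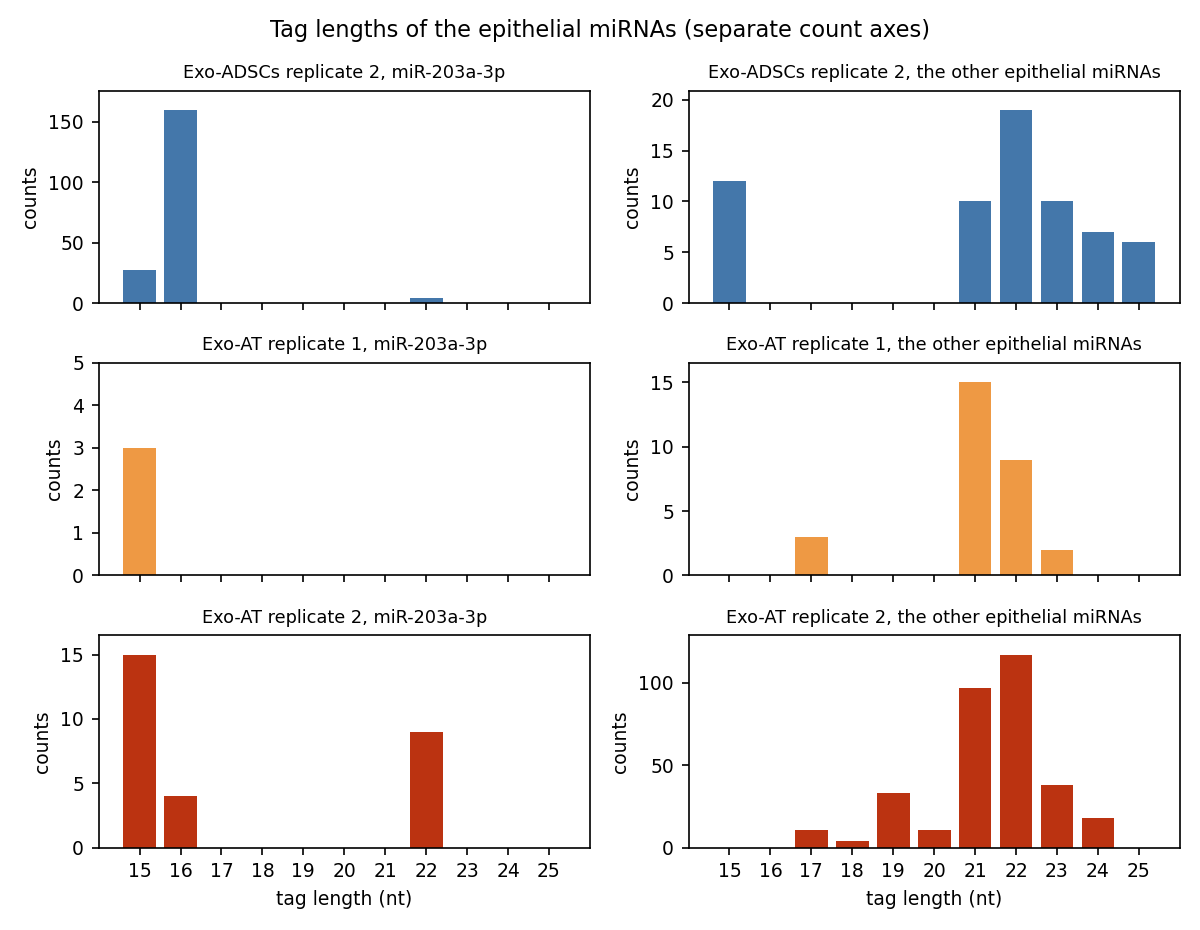
Tag lengths in nt (horizontal) against counts (vertical, a separate scale in each panel) for miR-203a-3p on the left and the other epithelial miRNAs together on the right, with 1 row per library. In Exo-ADSCs replicate 2 the miR-203a-3p bars stand at 15 and 16 nt, 187 of 191 counts, while in the Exo-AT libraries most counts of the other miRNAs are at 21 to 23 nt.

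A further pair of arms had counts in Exo-ADSCs replicate 2 alone, and both rest on short tags with a mismatch. miR-203a-5p and miR-429-3p had 6 counts each, from 1 tag of 15 nt each. The miR-203a-5p tag could not be placed on the RefSeq mature strand and lay on the loop side of it. Neither arm reached the expression filter, and neither is taken here as a detected mature miRNA.

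The miR-200 family was present at low levels in both sources. miR-200a-3p had 9, 8 and 47 counts, in the same library order. Its scaled level was 140 CPM in Exo-ADSCs against 632 and 320 CPM in Exo-AT (476 ± 221, SD, n = 2). Both Exo-AT values were above the Exo-ADSCs value, and the ratio was 2.46 (exact 95% counting interval 1.2 to 5.65), but the log2 fold change of 1.61 (SE 1.15) did not pass edgeR's test (adjusted p = 0.279), which adds the spread between libraries to counting error.

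miR-141-3p, from the other cluster, had 11, 5 and 45 counts. Scaled levels were 171 CPM against 395 and 306 CPM (351 ± 63.0, SD, n = 2), a ratio of 1.83 (0.939 to 3.89) and a log2 fold change of 0.96 (SE 1.17, edgeR adjusted p = 0.528). miR-200b-3p had 9, 0 and 14 counts, or 140 CPM against 0 and 95.2 CPM (47.6 ± 67.3, SD, n = 2), with a log2 fold change of -0.88 (SE 1.99, edgeR adjusted p = 0.753). The 0 in Exo-AT replicate 1 carries little weight, since 3 counts in that library are 328 CPM. miR-200c-3p was seen in Exo-AT replicate 2 alone, with 5 counts (36.8 CPM, exact 95% interval 11.9 to 85.8), all in the 22 nt tag with the annotated start. A level of that size would have given fewer than 3 counts in Exo-AT replicate 1.

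Within each cluster the hairpins were uneven. On chromosome 5, miR-200a-3p and miR-200b-3p had 9 counts each in Exo-ADSCs replicate 2 but 47 and 14 in Exo-AT replicate 2, and there the exact intervals of 346 CPM (254 to 459) and 103 CPM (56.3 to 173) did not overlap. No mature-sized tag of miR-429 was counted in any library. On chromosome 4, miR-141-3p had 45 counts and miR-200c-3p 5 in Exo-AT replicate 2. These levels compare ligated reads of different sequences, and ligation differs between sequences. miR-200b-3p in Exo-AT replicate 2 was also the one family arm made mostly of tags shorter than 20 nt, 10 of 14 counts at 19 nt. Counts of the miR-200 family in tags of 20 to 25 nt gave miR-200b-3p 207 CPM in Exo-ADSCs replicate 2 (exact 95% interval 94.7 to 393) against 34.8 (9.49 to 89.1) in Exo-AT replicate 2, intervals that did not overlap. Below the expression filter on that length range, this difference had no test across libraries.

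miR-375-3p was the most abundant of the 10 arms in Exo-AT replicate 2. It had 23, 7 and 100 counts, or 358 CPM after scaling in Exo-ADSCs against 553 and 680 CPM in Exo-AT (617 ± 89.7, SD, n = 2). The ratio was 1.87 (exact 95% counting interval 1.18 to 3.08), and the log2 fold change of 0.81 (SE 0.86) did not pass the test (edgeR adjusted p = 0.458). The direction turned with tag length: with tags of 20 to 25 nt alone the log2 fold change was -0.59 (SE 0.90, edgeR adjusted p = 0.619). On that length range the plain levels were 529 CPM (336 to 794) for Exo-ADSCs against 542 (148 to 1387) and 627 CPM (490 to 789) for Exo-AT, with all intervals overlapping.

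The sequences of the miR-375-3p and miR-141-3p tags differed between the sources at the 5′ end. In Exo-ADSCs replicate 2, 17 of 23 miR-375-3p counts (73.9%, Wilson 53.5 to 87.5) and 7 of 11 miR-141-3p counts (63.6%, 35.4 to 84.8) carried 3 extra bases in front of the mature strand. In both Exo-AT libraries 0 counts of either miRNA did, of 107 for miR-375-3p and 50 for miR-141-3p. In the forms below the 3 extra bases, or the seed where there are none, are in capitals.
miR-375-3p with a CAT lead, 7 counts, Exo-ADSCs replicate 2: CATtttgttcgttcggctcgcg
miR-375-3p with a GTA lead, 4 counts, Exo-ADSCs replicate 2: GTAtttgttcgttcggctcgcgt
miR-375-3p, 6, 4 and 48 counts in the 3 libraries: tTTGTTCGttcggctcgcgtga
miR-141-3p with a CAT lead, 7 counts, Exo-ADSCs replicate 2: CATtaacactgtctggtaaagatg
miR-141-3p, 4, 5 and 45 counts in the 3 libraries: tAACACTGtctggtaaagatg
All counts with a lead were recorded in the files as aligned with a mismatch or an insertion, so the leads do not match the hairpin in full.

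The leads were not limited to these miRNAs. In Exo-ADSCs replicate 2 the CAT lead was found on 22 other named miRNAs (379 counts), ACG on 26 (440 counts) and GTA on 20 (216 counts), and GAC stood on 2 (7871 counts). Over all other named miRNAs with a RefSeq mature strand, 9.72% of counts had 3 extra bases in that library, against 1.41% and 2.2% in the Exo-AT libraries, where each lead stood on 1 miRNA. Most of these counts came from few miRNAs. They lay on 48 miRNAs in Exo-ADSCs replicate 2, and on 1 and 2 miRNAs in Exo-AT replicates 1 and 2. With the 2 miRNAs that held most of them left out, 1.21% of counts had 3 extra bases in Exo-ADSCs replicate 2. Leaving out 2 miRNAs takes every such count from the Exo-AT libraries, so the 0% there was fixed in advance and is no comparison. What added the bases was not tested. With mismatched tags left out, which removes the leads, the log2 fold change of miR-375-3p was 2.62 (edgeR adjusted p = 0.0622) and that of miR-141-3p 2.44, with neither past the threshold.

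**Figure D3:**
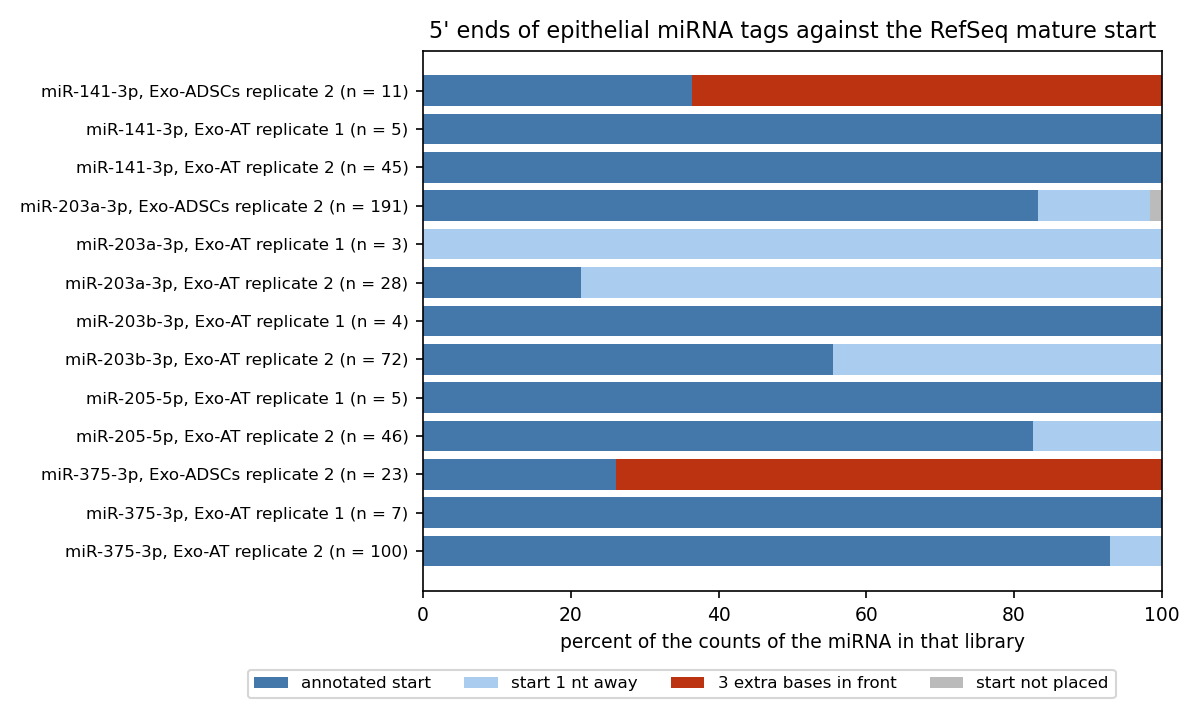
Where tags of 5 epithelial miRNAs begin against the RefSeq mature start, as a percent of the counts of that miRNA in each library, with n the number of counts. The parts are tags at the annotated start, tags 1 nt away, tags with 3 extra bases in front and tags that could not be placed; the 3-base leads, 73.9% for miR-375-3p and 63.6% for miR-141-3p, appear in Exo-ADSCs replicate 2 alone.

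The start of miR-203a-3p also differed. The annotated G was the first base in 83.2% of counts in Exo-ADSCs replicate 2 (Wilson 77.3 to 87.9) and in 21.4% (10.2 to 39.5) in Exo-AT replicate 2, where the remaining 22 of 28 counts began 1 nt downstream, at the first base of the seed. All 3 counts of Exo-AT replicate 1 began there too.

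By level, the order in Exo-AT replicate 2, the deepest library, was miR-375-3p (735 CPM before TMM scaling), miR-203b-3p (529), miR-200a-3p (346), miR-205-5p (338), miR-141-3p (331), miR-203a-3p (206), miR-200b-3p (103) and miR-200c-3p (36.8). Every neighbour in this order overlapped the next by its exact interval. miR-375-3p (598 to 894) lay clear of all but miR-203b-3p (414 to 667), and miR-203b-3p and miR-203a-3p (137 to 297) each overlapped miR-200a-3p, miR-205-5p and miR-141-3p but not each other. miR-200b-3p (56.3 to 173) overlapped miR-203a-3p and miR-200c-3p (11.9 to 85.8). In Exo-ADSCs replicate 2 the order was miR-203a-3p (1965 CPM), miR-375-3p (237), miR-141-3p (113) and then miR-200a-3p and miR-200b-3p (92.6 each). There miR-203a-3p lay clear of the rest, and the interval of miR-375-3p (150 to 355) overlapped those of miR-141-3p (56.5 to 202), miR-200a-3p and miR-200b-3p (42.3 to 176 each), so these 4 were not separated.

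The deposited table of the authors adds the second Exo-ADSCs library for 3 of these miRNAs. It lists 45 miRNAs as raised in Exo-AT, with a value headed normalized reads per library, and so does not show what was lower or unchanged. In the authors' deposited table miR-203b-3p had 392 and 127 in the columns named for Exo-AT and 10 and 0 in those for Exo-ADSCs. There miR-375-3p had 545 and 249 against 18 and 32, and miR-200a-3p had 256 and 187 against 10 and 12. In the authors' deposited table the folds for these were 17.97, 11.63 and 11.02, each the mean of Exo-AT plus 10 over the mean of Exo-ADSCs plus 10. All 3 had low values in both Exo-ADSCs columns, and miR-203b-3p was thus listed above 0 in the Exo-ADSCs library that has no tag counts here. miR-205-5p, miR-141-3p and miR-203a-3p are not among the 45.

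These folds for miR-375-3p and miR-200a-3p rest on another scaling than the ratios of tag counts. Those ratios were 1.87 and 2.46 after TMM scaling and 3.11 and 4.08 with total-count scaling, and the authors' folds are larger than either. The columns show what the authors' values were made from. The column named for Exo-AT replicate 1 was 5.44 to 5.45 per tag count of the library labelled Exo-AT replicate 2 for these 3 miRNAs, and within 2% of 5.44 for 35 of the 44 listed miRNAs with a count there. The column named for Exo-AT replicate 2 matched the library labelled Exo-AT replicate 1, at 62.3 per read of a single tag, for 34 of the 44 listed miRNAs with a count there (within 2%). For miR-203b-3p, miR-375-3p and miR-200a-3p the matching tags had 2, 4 and 3 counts. The column named for Exo-ADSCs replicate 2 was 1.39 per count of all tags for miR-375-3p and 1.33 for miR-200a-3p, and within 2% of 1.39 for 19 of the 40 listed miRNAs with a count there. By these matches the columns and the library labels are crossed within Exo-AT, which leaves the groups unaltered. Over all tags the column named for Exo-AT replicate 2 had a median of 30.4 per count of the library labelled Exo-AT replicate 1. The values per read fell as the count on all hairpins, predicted ones included, rose. The library labelled Exo-AT replicate 1 held 15200 such counts, at 62.3 per read of a single tag. Exo-AT replicate 2 held 181049, at 5.44, and Exo-ADSCs replicate 2 held 715114, at 1.39. With the named-miRNA totals, 9134, 136024 and 97204 in that order, there was no such fall. The part of this in the authors' larger folds was not tested.

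The tested miRNAs nearest to each in profile, by the distance of log2(scaled CPM + 1) over 3 libraries, were found among the non-epithelial forms too. Nearest to both miR-203b-3p and miR-205-5p were miR-411-5p (0, 4 and 45 counts) and miR-382-5p (0, 6 and 56 counts), both from the imprinted miRNA cluster that also encodes miR-127. Nearest to miR-203a-3p were miR-192-5p (171, 7 and 52 counts) and miR-103-3p (144, 6 and 62 counts). miR-141-3p was nearest to miR-151-5p and miR-181a-3p, miR-200a-3p to miR-30a-3p and miR-151-5p, miR-200b-3p to miR-30c-5p and miR-99b-3p, and miR-375-3p to miR-23a-3p and miR-122-5p. With 3 libraries such likeness is a description.

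Other miRNAs known from epithelia were mostly lower in Exo-AT. Of the 11 on that list, 7 forms were tested, 0 were called higher and 6 lower, with a median log2 fold change of -2.68 against 0.37 over all 183, of which 19.1% were called lower. miR-183-5p and miR-182, products of a cluster known from sensory epithelia, had 201, 2 and 115 and 138, 2 and 109 counts. Their log2 fold changes were -2.45 (SE 0.52, edgeR adjusted p = 2.35e-05) and -1.98 (SE 0.57, edgeR adjusted p = 0.00244). miR-192-5p, miR-194-5p, miR-215-5p and miR-31a-5p were the other 4 lower, of which miR-194-5p and miR-215-5p had 23 counts each in Exo-ADSCs replicate 2 and none in either Exo-AT library. Unlike miR-203a-3p in that library, miR-192-5p, miR-194-5p and miR-215-5p had 100% of their counts in tags of 20 to 25 nt. The list was chosen with earlier results of these data known, and its count is not independent evidence.

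Markers of other cell types give the setting of the miR-203b-3p and miR-205-5p result. Of 14 tested forms on the mesenchymal list 0 were higher and 6 lower, against 19.1% of all tested miRNAs in each direction. The mesenchymal list was abundant in all 3 libraries. It summed to 669666 CPM in Exo-ADSCs against 367392 and 420039 CPM in Exo-AT after TMM scaling, but to 444705 against 510209 and 455468 CPM before it; miR-10b-5p was not called (log2 fold change 0.11, SE 0.24) and miR-143-3p was lower (-0.87, SE 0.24, edgeR adjusted p = 0.00141). All further sums are after TMM scaling, as the tests are. The endothelial list stood at 499 CPM in Exo-ADSCs against 2767 and 4721 CPM, with miR-126a-3p higher (3.40, SE 0.56, edgeR adjusted p = 8.04e-08) and miR-126a-5p not called. The erythroid list stood at 50789 against 36834 and 154497 CPM. Its miR-486-5p was called higher (0.93, SE 0.27, edgeR adjusted p = 0.00231) although the groups overlapped, at 49869 CPM against 36676 and 153191 CPM, and miR-451-5p was not called. Of 4 tested leukocyte forms 1 was higher, miR-150-5p (0, 2 and 69 counts), and 1 lower, miR-146a-5p, and the list summed to 2945 against 711 and 2775 CPM. The 1 tested form of the muscle list, miR-133a-3p, was not called, at 265, 0 and 156 CPM for the list. That list named miR-1 and so did not take in miR-1b-3p, the muscle miRNA counted under that name in the files. Chosen after the values were seen, miR-1b-3p had 3, 18 and 177 counts and was higher in Exo-AT (4.74, SE 0.96, edgeR adjusted p = 1.02e-05), and miR-499-5p, of heart and slow muscle, had 0, 3 and 21 counts and was not called (edgeR adjusted p = 0.192). Of the neuroendocrine list, chosen because miR-375 marks endocrine cells, miR-9a-5p was higher (5.10, SE 0.90, edgeR adjusted p = 5.81e-07) and miR-7a-5p not called; the list summed to 608 against 3636 and 741 CPM. The part of vessel, blood cell and muscle vesicles in the epithelial miRNA differences was not tested.

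The calls depended on the setting, and each is read against the share of all tested miRNAs called in that direction. The number of epithelial arms tested was 7, but 10 without the filter on low counts. It was 5 with tags of 20 to 25 nt, where miR-203a-3p and miR-200b-3p were not tested. It was 6 with tags under a single hairpin, with tags without a mismatch and with the most common tag. With total-count scaling 2 of the epithelial miRNAs were higher (background 25.1%) and 1 lower (10.4%). With DESeq2 size factors 1 was higher (12.6%) and 1 lower (16.4%), without the filter on low counts 1 was higher (8.33%) and 1 lower (7.47%), and in the DESeq2 test 1 was higher (12%) and 1 lower (11.5%). limma called 0 higher (13.7%) and 1 lower (22.4%). Tags of 20 to 25 nt gave 2 higher (23.1%) and 0 lower (22.3%), tags under a single hairpin 2 higher (20.3%) and 1 lower (19%), and tags without a mismatch 2 higher (24.7%) and 1 lower (19.5%). The most common tag alone gave 0 higher (28.7%) and 0 lower (20.2%). With predicted hairpins included, no epithelial miRNA and 0% of all tested miRNAs were called in either direction. miR-203b-3p kept its call in 7 of 10 alternatives, miR-205-5p in 4 of 10 and miR-203a-3p in 7 of the 9 that could test it.

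**Figure D4:**
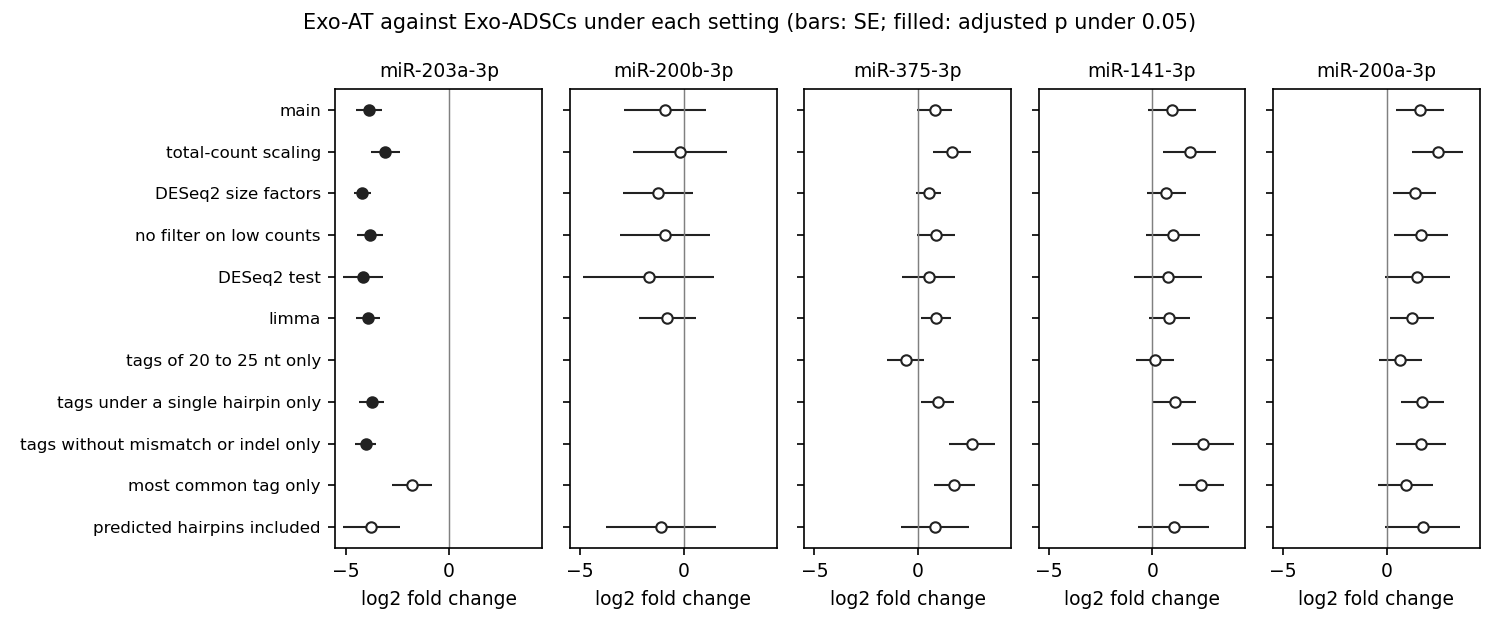
Log2 fold change of Exo-AT against Exo-ADSCs (horizontal, bars are SE) for the 5 epithelial miRNAs with counts in Exo-ADSCs and Exo-AT, under the settings named on the left, where main is the fit used above. Filled points have an adjusted p under 0.05 and empty rows mean that the miRNA did not pass the filter; miR-203a-3p has no point with tags of 20 to 25 nt, and miR-375-3p lies at -0.59 there.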

How the data were processed

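Small RNA of about 15 to 35 nt was read from 4 exosome libraries. The deposited tag files give, per the file headers, whole-number counts per tag and the hairpin it aligned to. Alignment with Novoalign 2.07.11 and the build rn6 are named in the submitters' processing notes; adaptor trimming is not given in the sources used here. For Exo-ADSCs replicate 1 the tag file gives totals by read class, and it was not used. In a table of the whole series the authors deposited normalized reads (a score here, as its factor is not stated), their group means and a fold, which is a ratio.

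Tags on named hairpins were summed to 5p or 3p arms by the tag's midpoint. 5′ ends were placed by 10 matching bases of the RefSeq mature strand. Counts were tested with edgeR 4.0.16 (TMM, default filter with minimum count 10 and total 15, quasi-likelihood, 1 residual degree of freedom, so that the lone Exo-ADSCs library is assumed to vary like Exo-AT), and adjusted p under 0.05 was called. The script was tested on simulated data. DESeq2 1.42.0 and limma 3.58.1 were alternatives. Shares have Wilson 95% intervals, given for a share of at least 20 counts or with the counts beside it. Named were all 18 arms, for each marker list the 2 tested forms with most counts and for each tested arm the 2 nearest miRNAs; other list members called lower were named after their values were seen. The miRNAs and lists were chosen with earlier results of these data known.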

Additional observations from a re-analysis of the deposited data

How the results depend on the processing

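No paired analysis was possible because the libraries with tag counts share only replicate number 2 between the groups. The call of miR-205-5p was lost with DESeq2 size factors (log2 fold change 7.67, adjusted p = 0.0724), without the filter on low counts (7.68, 0.0569), in the DESeq2 test (6.68, 0.0533), in limma (5.39, 0.0772), with the most common tag alone (6.95, 0.0539) and with predicted hairpins included (7.70, 0.511). miR-203b-3p lost its call in limma (5.94, adjusted p = 0.0518), and in edgeR with the most common tag (6.54, 0.0669) and with predicted hairpins (7.93, 0.511). With predicted hairpins miR-203a-3p was at -3.77 (edgeR adjusted p = 0.511), and with its most common tag, of 15 nt, at -1.80. Log2 fold changes against 0 counts depend on the prior count and are no bounds. The number of these miRNAs called higher was therefore 1 with DESeq2 size factors, without the filter and in the DESeq2 test, and 0 in limma, with the most common tag and with predicted hairpins; the number lower was 0 with tags of 20 to 25 nt, the most common tag and predicted hairpins. The cause of these losses was not tested, except that miR-203a-3p did not pass the filter at 20 to 25 nt. With predicted hairpins 0 of 401 miRNAs were called by edgeR, 25 at an unadjusted p under 0.05. Over all miRNAs 19 were lower with total-count scaling, 23 higher with DESeq2 size factors, and 22 higher and 21 lower in the DESeq2 test. Total-count scaling moved the median log2 fold change from 0.37 to 1.21 and the split of calls to 46 higher and 19 lower; DESeq2 size factors moved it to 0.08 (23 higher, 30 lower), and limma gave 25 higher and 41 lower. miR-375-3p reversed to -0.59 with tags of 20 to 25 nt.

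Leaving out either Exo-AT library left 1 library per group and no test. The values then ranged from -3.96 to -3.59 for miR-203a-3p, 6.65 to 8.70 for miR-203b-3p, 6.97 to 8.05 for miR-205-5p, 0.66 to 0.92 for miR-375-3p, 1.18 to 2.19 for miR-200a-3p, 0.83 to 1.23 for miR-141-3p and -5.46 to -0.55 for miR-200b-3p, whose lowest value was without Exo-AT replicate 2. As a share of the counts on all hairpins the epithelial miRNAs held 0.0357%, 0.211% and 0.197% in Exo-ADSCs replicate 2, Exo-AT replicate 1 and Exo-AT replicate 2, and 0.129% of tags of 20 to 25 nt in Exo-ADSCs replicate 2. With 21 to 23 nt in place of 20 to 25 nt the length share was 68.1% for miR-200a-3p, 75% for miR-203b-3p and 91.3% for miR-205-5p in Exo-AT replicate 2 and 73.9% for miR-375-3p in Exo-ADSCs replicate 2. Allowing a start within 1 nt gave 98.4% for miR-203a-3p in Exo-ADSCs replicate 2 and 100% for miR-203a-3p, miR-203b-3p, miR-205-5p and miR-375-3p in Exo-AT replicate 2. Depth limits Exo-AT replicate 1 most, where 0 counts allow 328 CPM.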
